A study of Mus musculus with 6 samples.

Results

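The response of 427 thymoma cells to phorbol 12-myristate 13-acetate (PMA) was read from the PMA library and the DMSO library, over every locus that reached 1 FPKM in either. FPKM counts fragments relative to exon length and library size, so that levels of different genes can be set side by side. Of 25001 loci in the files, 10981 met this rule, and 9969 of these were single annotated gene models with an Ensembl identifier and a symbol. The 427 cells are a mouse thymoma line, wild type by label, and both groups stably carried the empty pSUPER vector. Cells at passage 4-10 were kept without serum for 2 h and then received DMSO or 1 µM PMA for 2 h, with 1 library per group. The series' design gives PMA as a means to raise the intracellular domain of epithin/PRSS14, a membrane serine protease, through shedding. A DMSO and a PMA library labelled SP2bKD, for a knockdown of SPPL2b in the same line, had the same treatments and share no library with the 427 pair. The labels name an siRNA, whereas the methods of the study describe a stable shRNA clone. The paper reports the knockdown from real-time PCR of SPPL2b mRNA in its clones, and less intracellular domain after PMA. In the FPKM used here the targeted gene goes against the label. Sppl2b was at 13.4 FPKM with DMSO and 9.37 with PMA in the libraries labelled SP2bKD, against 9.90 and 6.86 in 427 cells. These libraries are therefore set beside the 427 pair as another pair, neither as replicates nor as a loss of Sppl2b.

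PMA mimics diacylglycerol and activates the diacylglycerol-binding members of protein kinase C, as well as protein kinase D and RasGRP proteins. These feed the Ras and MAP kinase cascade, which raises AP-1 factors of the Fos and Jun families, and the IkappaB kinase pathway, which frees NF-kappaB from its inhibitors. In epithelial cells both factors act on genes for chemokines, growth factor ligands and secreted proteases, and part of the earliest targets encode phosphatases and inhibitors that shut the pathways off again.

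Fragment counts were not analysed here, and the depth was estimated from the step that 1 fragment makes in FPKM. The estimate was 2.79e+07 fragments for the DMSO library and 2.91e+07 for the PMA library. Epithelial markers were present in both libraries. Keratin 5 stood at 6017 FPKM with DMSO and 5793 with PMA, from a locus of 76.6 kb that merges gene models, and Krt14 at 2154 and 1960.5 FPKM. Foxn1, the transcription factor of thymic epithelium, stood at 11.0 and 6.37 FPKM. Of the 9 epithelial markers 8 reached 1 FPKM, and only Krt19 did not. The 3 B cell, 4 fibroblast and 3 endothelial markers were all under 1 FPKM, Cd3d, Cd3e, Cd4 and Thy1 were listed at 0 in both libraries, and among T cell and myeloid markers only Rag1, in a merged locus of 88.8 kb, and Csf1r reached 1 FPKM. In bulk RNA, fewer cells of a type and less RNA per cell cannot be told apart. With 1 library per group no difference has a replicate check, no p-value was computed, and "higher" and "lower" below describe these libraries.

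With PMA, 488 loci (4.44% of 10981) exceeded their DMSO level by more than 2-fold and 549 (5%) lay below it by more than 2-fold, with 0.01 FPKM added to both libraries. Among the 9969 annotated loci, 375 (3.76%) were higher and 460 (4.61%) lower, and the median log2 fold change was -0.11. Of the 375 higher loci 93 were under 1 FPKM with DMSO, and of the 460 lower loci 164 were under 1 FPKM with PMA. Such loci met the rule through 1 library only, so counts over measured members favour changed loci. The strong changes were mostly increases. At more than 4-fold, 117 annotated loci were higher and 44 lower, and at more than 8-fold 51 were higher and 8 lower. The balance depends on how low loci and the scale are treated. Of all called loci 47.1% were higher, against 62.5% when 1 FPKM was added, 68.0% at a minimum of 10 FPKM and 24.3% when the PMA library was scaled to the FPKM sum of the DMSO library. That last scaling shifts every log2 fold change by -0.25, and 10 loci hold 93.9% of the DMSO sum and 94.2% of the PMA sum.

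**Figure D1:**
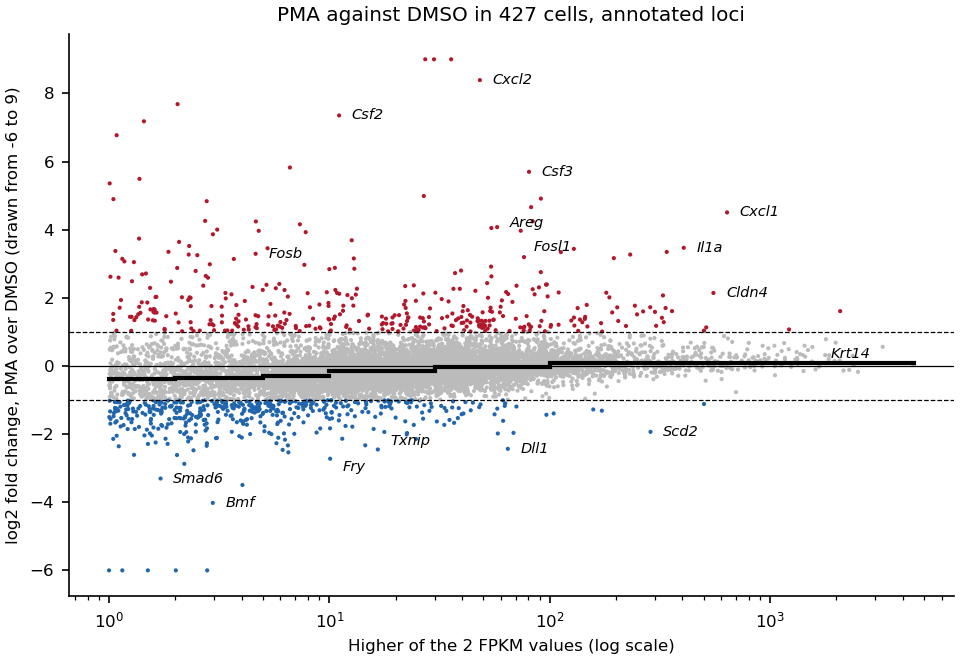
Each point is an annotated locus, with the higher of its DMSO and PMA FPKM on a log scale on the x axis and the log2 fold change of PMA over DMSO in 427 cells on the y axis, where values beyond -6 and 9 are drawn at those limits. Red points are more than 2-fold higher, blue points more than 2-fold lower, dashed lines mark 2-fold, and black bars are the medians of 6 ranges of level, which run from -0.37 at 1 to 2 FPKM to 0.09 at 100 FPKM or more.

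The largest increases among annotated loci at 10 FPKM or more were led by genes of secreted signals, Cxcl2 and Csf2, which encode a neutrophil chemokine and the colony-stimulating factor GM-CSF. Promoter windows from RefSeq on GRCm38.p6, which hold 250 bases before and 50 after the start site, were searched on both strands for the sites of the factors named above. The stretches shown here are the 110 bases before the start of 5 raised genes whose window holds an NF-kappaB site, in gene orientation, with the site in capitals. They were chosen after the values were seen, to show where the site lies. They span chr5:90891135-90891244 (Cxcl1, plus strand), chr5:90903789-90903898 (Cxcl2, plus strand), chr5:90785991-90786100 (Cxcl3, plus strand), chr1:83116656-83116765 (Ccl20, plus strand) and chr12:55492648-55492757 (Nfkbia, minus strand).
Cxcl1: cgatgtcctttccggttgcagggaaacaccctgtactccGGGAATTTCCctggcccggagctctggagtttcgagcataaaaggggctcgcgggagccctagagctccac
Cxcl2: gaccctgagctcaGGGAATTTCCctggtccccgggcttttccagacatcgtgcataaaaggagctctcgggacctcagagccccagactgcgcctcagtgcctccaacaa
Cxcl3: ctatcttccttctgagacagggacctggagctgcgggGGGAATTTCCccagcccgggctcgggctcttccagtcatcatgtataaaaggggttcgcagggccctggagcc
Ccl20: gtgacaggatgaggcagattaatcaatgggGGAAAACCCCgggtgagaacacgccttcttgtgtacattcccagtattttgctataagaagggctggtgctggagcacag
Nfkbia: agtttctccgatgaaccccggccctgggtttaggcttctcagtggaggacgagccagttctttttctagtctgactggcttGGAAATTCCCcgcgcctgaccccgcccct

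The site started 71 bases before the start of Cxcl1, 97 before Cxcl2 and 73 before Cxcl3, and its letters, GGGAATTTCC, were identical in the 3 chemokine genes. In Ccl20 it started 80 bases before the start, and in Nfkbia, which encodes the inhibitor IkappaB-alpha, 29 bases before it. Of all 27025 genes with a window 5.14% held such a site, as did 6.12% of the member loci with a window.

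The next stretches are those of 6 raised genes for proteases, a protease receptor and interleukin 1 alpha with the AP-1 site TGANTCA in capitals, followed by amphiregulin with the cyclic AMP response element TGACGTCA. Neither letter string contains the other. The stretches span chr9:7445712-7445821 (Mmp3, plus strand), chr9:7502232-7502341 (Mmp10, plus strand), chr9:7272404-7272513 (Mmp13, plus strand), chr9:7388027-7388136 (Mmp1b, minus strand), chr2:129309973-129310082 (Il1a, minus strand), chr7:24462373-24462482 (Plaur, plus strand) and chr5:91139489-91139598 (Areg, plus strand).
Mmp3: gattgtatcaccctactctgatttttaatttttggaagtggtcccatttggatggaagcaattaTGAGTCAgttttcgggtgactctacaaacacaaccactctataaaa
Mmp10: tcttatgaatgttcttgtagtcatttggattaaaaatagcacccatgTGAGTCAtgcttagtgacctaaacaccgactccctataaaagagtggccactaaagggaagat
Mmp13: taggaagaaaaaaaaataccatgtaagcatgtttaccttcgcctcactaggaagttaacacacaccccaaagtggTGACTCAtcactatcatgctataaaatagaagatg
Mmp1b: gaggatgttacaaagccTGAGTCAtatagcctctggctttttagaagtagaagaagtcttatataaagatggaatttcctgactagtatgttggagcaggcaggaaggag
Il1a: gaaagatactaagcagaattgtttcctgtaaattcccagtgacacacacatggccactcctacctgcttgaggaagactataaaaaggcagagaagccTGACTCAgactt
Plaur: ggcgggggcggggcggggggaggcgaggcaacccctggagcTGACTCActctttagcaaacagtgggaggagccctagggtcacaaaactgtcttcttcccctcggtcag
Areg: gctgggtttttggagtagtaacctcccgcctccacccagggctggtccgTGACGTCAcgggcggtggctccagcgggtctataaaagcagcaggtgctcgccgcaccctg

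AP-1 sites began between 12 bases before the start in Il1a and 93 in Mmp1b. The AP-1 letters were in 8.97% of all windows and 6.10% of those of member loci, and TGACGTCA in 2.03% and 3.99%. A match is a description of letters and not a bound site. Shares were not compared between raised and other loci, because only 70.6% of the higher and 79.3% of the lower symbols had a window in the table, and a comparison over them would be void.

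Of 15 listed loci for receptors of PMA 6 reached 1 FPKM, all of them protein kinase C or D genes, and no RasGRP gene did. The 6 stayed within 2-fold, between -0.28 and 0.70 on the log2 scale. Prkcd, which encodes isoform delta, had the highest increase, from 22.1 to 35.9 FPKM. Prkd3 was at 32.2 and 31.0 FPKM, Prkca at 6.98 and 7.41 and Prkch at 6.404 and 6.67.

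Of 10 measured AP-1 and small Maf factors 6 were more than 2-fold higher, 1 of them under 1 FPKM with DMSO, and 0 were lower. The median log2 fold change was 1.43, against -0.11 over all annotated loci. Fosl1, which encodes Fra-1 (chromosome 19, 5447703 to 5455945 on GRCm38), went from 4.71 to 73.8 FPKM, a 15.7-fold difference, and overlaps the Ccdc85b locus. Reads of overlapping loci cannot be told apart where strand is not used, and the sources used here do not say that it was. Fosl2, a related gene, was at 45.3 and 49.0 FPKM. Fosb and Fos were also higher with PMA but stayed less abundant than Fosl1, with Fosb at 0.463 and 4.63 FPKM and Fos at 1.11 and 5.93. Maff was at 6.81 and 30.3 FPKM, Atf3 at 2.74 and 9.91, and Junb at 46.9 and 95.1. Fosl1 and Junb were the most abundant of the raised members after 2 h. Jun itself differed by 0.01 on the log2 scale (15.6 and 15.7 FPKM), and Jund was at 22.03 and 13.4 FPKM.

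Among 18 other immediate early genes 4 were higher (22.2%) and 1 lower (5.56%), against 3.76% and 4.61% of all annotated loci. Of the 4, Nr4a3 and Egr3 were under 1 FPKM with DMSO. Of the 16 at 1 FPKM or more in both libraries 2 were higher. Ier3, an early gene linked to cell survival, went from 33.4 to 339.6 FPKM, and the nuclear receptors Nr4a1 and Nr4a3 and the zinc finger factor Egr3 were also higher, at 12.1, 1.01 and 2.47 FPKM with PMA against 2.85, 0.157 and 0.349. Egr1, the classic first responder to phorbol esters, was at 10.3 FPKM with DMSO and 8.63 with PMA. Myc, at 38.1 and 75.7 FPKM, came within 0.01 of the log2 threshold. Id2, an inhibitor of basic helix-loop-helix factors, was lower, at 4.78 and 2.09 FPKM.

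Inhibitors of MAP kinase signalling were higher in part. Of 16 measured members 6 were higher and 0 lower, with a median log2 fold change of 0.56. Dusp6, the cytoplasmic ERK phosphatase (chromosome 10, 99263231 to 99267488), went from 11.1 to 112 FPKM, and its nuclear relatives Dusp5 and Dusp4 from 8.12 to 39.1 and from 13.1 to 52.5. Errfi1, an inhibitor of the EGF receptor, was at 17.9 and 59.9 FPKM, Dusp7 at 40.2 and 90.0, and Spry2 at 4.93 and 10.2. Dusp1, the phosphatase with a preference for the stress kinases p38 and JNK, was at 17.4 and 13.2 FPKM, and Dusp8, of the same preference, was also below its DMSO level, with a log2 fold change of -0.49.

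Both subunits and inhibitors of NF-kappaB were among the higher genes. Of 14 measured members 8 were higher, 2 of them under 1 FPKM with DMSO, and 0 were lower. The median log2 fold change was 1.24. Among the subunits Relb went from 4.34 to 22.1 FPKM, Nfkb2, which overlaps Psd, from 31.0 to 94.5 and Nfkb1 from 45.5 to 101. Rela was at 38.5 and 46.3 FPKM and Rel at 8.43 and 7.18, so the genes of the precursor subunits and of RelB differed by more than those of p65 and c-Rel. Inhibitors and other regulators past 2-fold included Nfkbia, at 21.2 and 53.3 FPKM, the deubiquitinase gene Tnfaip3 at 14.97 and 64.7, Bcl3 at 5.89 and 22.1, and Tnip3 at 0.756 and 3.37. The inhibitor genes Nfkbib, Tnip1 and Cyld stayed within 2-fold, with log2 fold changes of 0.73, 0.58 and -0.29. Traf1 had the largest ratio of the list at a low level, 0.133 and 2.73 FPKM, or an estimated 12.8 and 273 fragments.

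Of 13 measured chemokine ligands 11 were more than 2-fold higher, 5 of them under 1 FPKM with DMSO, and 0 were lower. Of the 8 at 1 FPKM or more in both libraries 6 were higher. The median over the 13 was 3.16, the summed level going from 267.5 to 1462 FPKM. Cxcl1 (chromosome 5, 90891184 to 90893115), a neutrophil attractant, made up much of this sum, at 28.1 FPKM with DMSO and 638 with PMA. Cxcl2 (chromosome 5, 90903871 to 90905938) went from 0.134 to 48.2 FPKM, that is from an estimated 7.71 to 2898 fragments. From these fragments the exact 95% interval of the ratio runs from 176 to 805, and it covers counting error only. Ccl20, the ligand of CCR6, was listed at 0 with DMSO and stood at 29.8 FPKM with PMA. Cxcl5 was at 21.8 and 195 FPKM and Ccl2, an attractant of monocytes, at 13.5 and 91.1. Cxcl3, Cxcl10 and Ccl5 began under 1 FPKM and reached 4.64, 4.78 and 7.81. The 2 members within 2-fold were Ppbp, at 144 and 267 FPKM, and the thymic chemokine Ccl25, at 12.4 and 14.3.

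Interleukins and colony-stimulating factors followed, with 10 of 13 measured members higher, 2 of them under 1 FPKM with DMSO, 0 lower and a median log2 fold change of 2.13. Csf3, which encodes the granulocyte factor G-CSF (chromosome 11, 98700158 to 98703843), went from 1.54 to 80.5 FPKM. Csf2 (chromosome 11, 54247271 to 54249667) went from 0.0578 to 11.1 FPKM, and since the DMSO value rests on an estimated 1.29 fragments, the counting interval of its ratio runs from 44.0 to 9808. The highest levels were those of Il1a, at 36.7 and 406 FPKM, and Lif, at 11.9 and 129. Il24 was at 3.28 and 54.3 FPKM, Il23a at 6.10 and 26.7, and Il1rn, the receptor antagonist of interleukin 1, at 1.43 and 10.6. The members under their DMSO level were within 2-fold, namely Il18, at 14.6 and 7.81 FPKM, and Kitl, at 5.51 and 3.32.

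Growth factors that act on ErbB receptors were higher, whereas none of their receptors passed 2-fold upward. Of 10 measured members of the EGF list 7 were higher and 1 lower, against 3.76% and 4.61% of all annotated loci. The 7 were all ligands, and 2 of them were under 1 FPKM with DMSO. Of the 8 members at 1 FPKM or more in both libraries 5 were higher. Areg (chromosome 5, 91139599 to 91148432) went from 3.41 to 57.7 FPKM, Hbegf from 9.64 to 52.0, Nrg1 from 15.4 to 43.5 and Tgfa from 23.4 to 53.4. Ereg went from 0.469 to 5.24 FPKM, Btc from 2.17 to 9.74 and Epgn from 0.488 to 1.33. The receptor gene Egfr was at 13.2 and 21.1 FPKM, Erbb2 had a log2 fold change of -0.40, and Erbb3 was the lower member, at 20.6 and 10.0 FPKM. Of 13 other growth factors 4 were higher, namely Hgf, Vegfa, Pdgfb and Inhba, and 2 were lower, Fgf21 and Edn2. Hgf was under 1 FPKM with DMSO. Vegfa, which encodes the main angiogenic factor, was at 18.4 and 96.2 FPKM and Pdgfb at 19.9 and 85.4. Edn2 and Fgf21 were under 2 FPKM in both libraries.

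**Figure D2:**
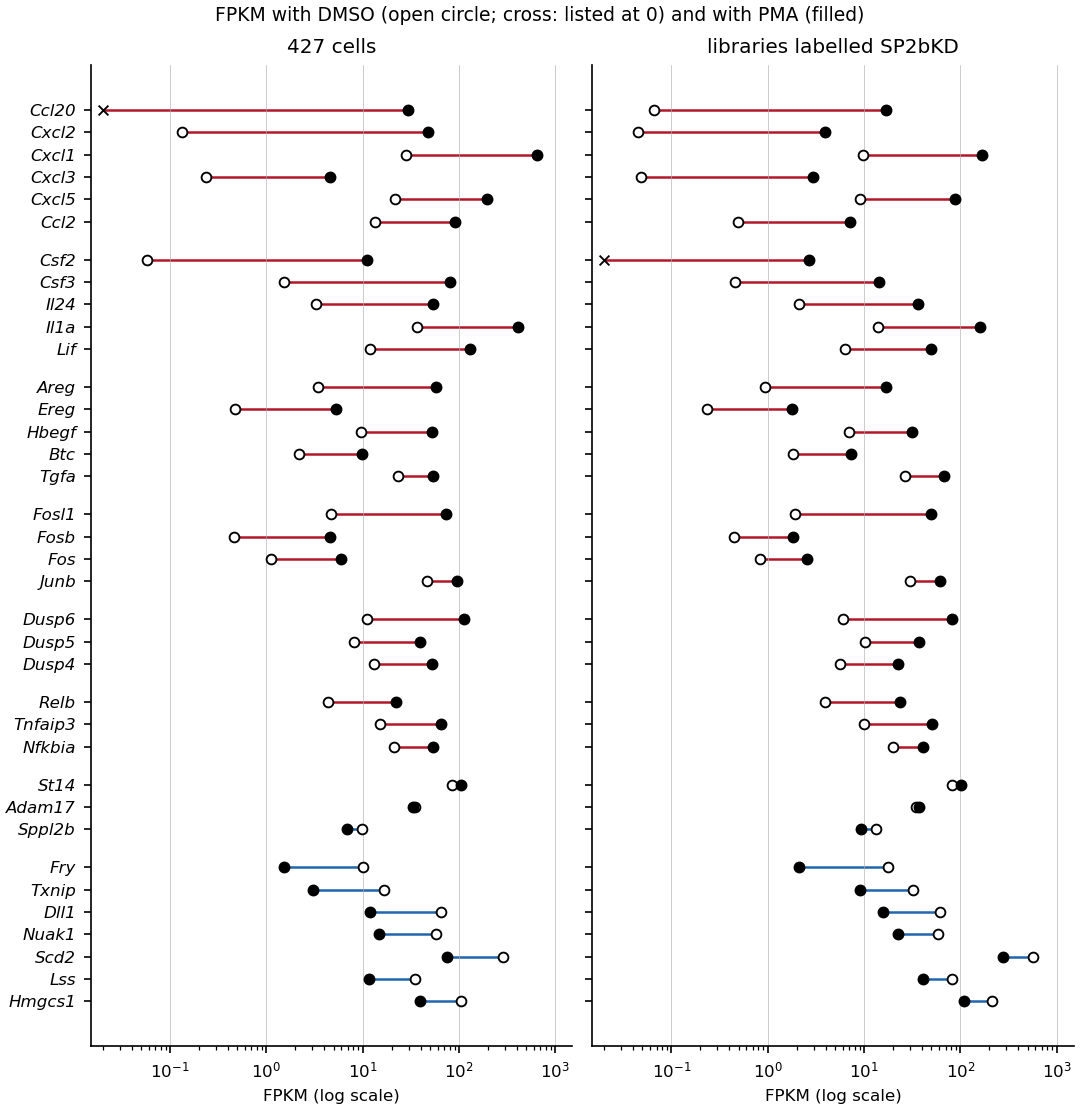
The x axis is FPKM on a log scale and each row a gene named in the text, with the DMSO library as an open circle, the PMA library as a filled circle and a cross at the left edge where DMSO is listed at 0. Red lines mark genes higher and blue lines genes lower with PMA. The left panel holds 427 cells, where Cxcl1 reaches 638 and Il1a 406 FPKM with PMA, and the right panel the libraries labelled SP2bKD, where they reach 168 and 161.

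Proteases that degrade the extracellular matrix were divided. Of the 12 measured matrix metalloproteinases and inhibitors 5 were higher, 4 of them under 1 FPKM with DMSO, and 1 was lower. Mmp13 went from 0.402 to 7.35 FPKM, Mmp10 from 0.184 to 3.10 and Mmp3 from 0.157 to 2.08, and Mmp1b, which overlaps Mmp12, was listed at 0 with DMSO and stood at 1.44 FPKM with PMA. These 4 collagenases and stromelysins stayed at low levels, with an estimated 572 fragments at most. The inhibitor Timp1 was far more abundant, at 82.0 and 205 FPKM. Mmp11, stromelysin 3, was the lower member, at 12.7 and 3.69 FPKM, and the membrane-bound Mmp14 had a log2 fold change of 0.53. In plasminogen activation, Plaur, the receptor of urokinase (chromosome 7, 24461569 to 24475968), went from 24.1 to 232 FPKM, and urokinase itself (Plau) from 28.5 to 78.6.

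Of 17 measured genes for adhesion, the cytoskeleton and targets of serum response factor 5 were higher, 3 of them under 1 FPKM with DMSO, and 0 were lower. Cd44, the hyaluronan receptor, went from 77.9 to 327 FPKM, Plk3 from 7.60 to 36.6, and the collagen receptor subunit gene Itga2 from 0.229 to 2.30. The actin genes were above their DMSO levels without passing 2-fold, with Actg1 at 1236 and 1984 FPKM. Vcam1, at 0.579 and 2.35 FPKM, and Tagln, at 0.854 and 1.79, were the others past 2-fold. The tight junction gene Cldn4 went from 125 to 553 FPKM and Krt18 from 71.6 to 171, while the remaining epithelial markers stayed within 2-fold. The prostaglandin synthase Ptgs2 was at 86.5 and 286 FPKM and was the only one of 5 measured members of its list past 2-fold.

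The genes around epithin differed little. St14, which encodes epithin/PRSS14 (chromosome 9, 31089402 to 31131853), was at 85.6 FPKM with DMSO and 105 with PMA, a log2 fold change of 0.30. Its inhibitors Spint1 and Spint2 had log2 fold changes of 0.30 and 0.12. The sheddase gene Adam17 was at 35.0 and 33.5 FPKM and Adam10 at 60.1 and 50.6. Among the intramembrane proteases Sppl2a was at 54.5 and 56.2 FPKM, Sppl3 at 62.4 and 39.9, and Sppl2b at 9.90 and 6.86. Sppl2c was listed at 0. The 1 member of the list past 2-fold was F2rl1, which encodes the protease-activated receptor PAR-2, at 87.2 and 249 FPKM.

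**Figure D3:**
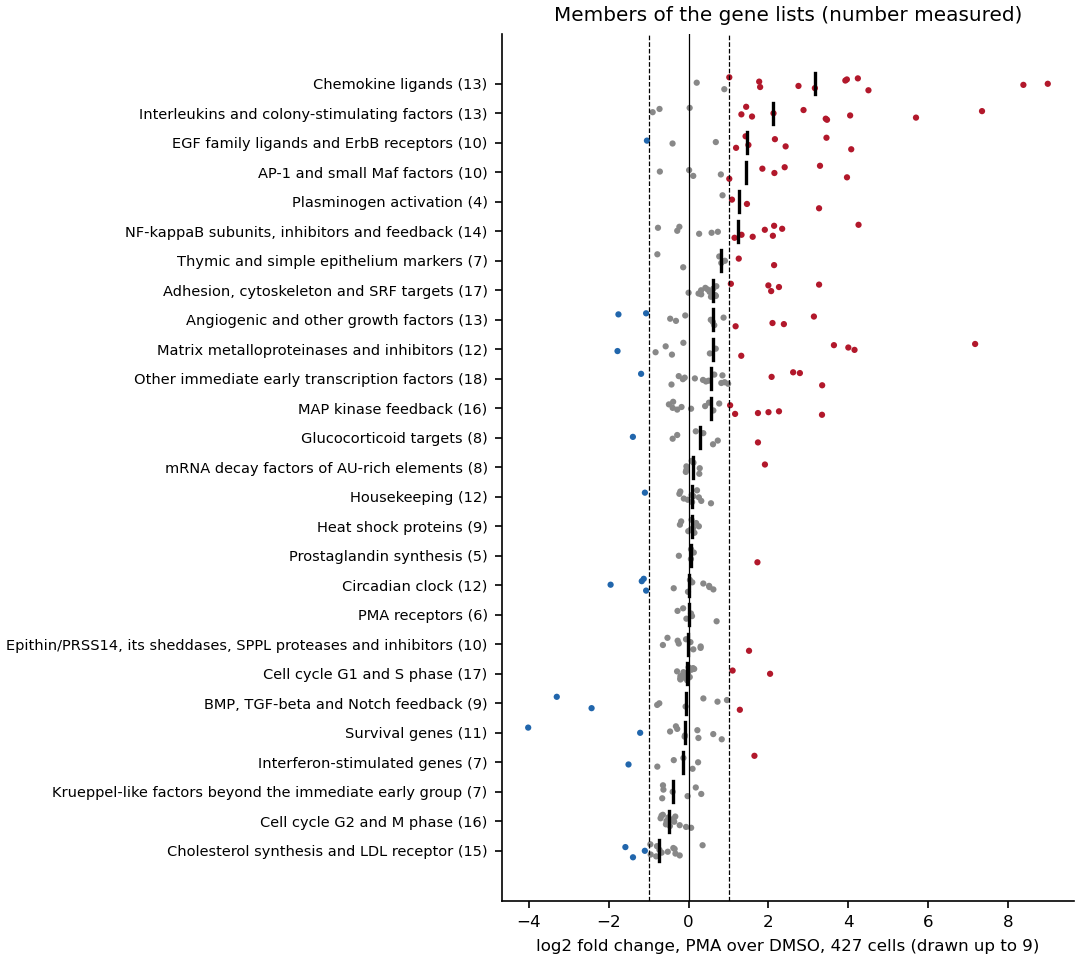
Each row is a gene list with its number of measured members, each point a member placed by its log2 fold change of PMA over DMSO in 427 cells, and each black bar the median of the list. The dashed lines mark 2-fold and 1 value above 9, Ccl20, is drawn at 9. The chemokine median of 3.16 stands at the top and the cholesterol synthesis median of -0.73 at the bottom.

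The largest decreases among annotated loci at 10 FPKM or more were smaller than the increases, from 6.64-fold to 3.82-fold. Fry, which encodes a microtubule-binding protein (chromosome 5, 150118645 to 150497753), was at 10.1 and 1.52 FPKM. Txnip, which binds thioredoxin and limits glucose uptake, was at 16.6 and 3.03 FPKM, and the Notch ligand gene Dll1 at 64.5 and 11.95. Trp53inp1, a target of p53, was at 17.8 and 4.63 FPKM, the kinase gene Nuak1 at 58.1 and 14.7, and Lgr4, a receptor of R-spondins, at 68.5 and 17.5. The most abundant of the 12 was Scd2, a fatty acid desaturase, at 287 and 75.01 FPKM. The others were Gm17655, the transporter Slc43a2, the choline dehydrogenase gene Chdh, Flrt2 and Filip1l, the last of which overlaps Cmss1. At lower levels, Bmf, an inducer of cell death of the BH3-only kind, was at 2.96 and 0.173 FPKM and Smad6, an inhibitor of BMP signals, at 1.71 and 0.165.

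Genes of cholesterol synthesis had a median log2 fold change of -0.73, with 14 of 15 measured members under 0 and 3 more than 2-fold lower. These were Lss, at 35.1 and 11.7 FPKM, Hmgcs1, at 104 and 39.6, and Insig1, a regulator of the pathway, at 62.8 and 29.3. Of 16 genes of the G2 and M phases, 15 were under 0, with a median of -0.49, and 0 passed 2-fold. Kif11 had the lowest value, at 56.0 and 34.4 FPKM. Genes of G1 and S phase differed from these, with a median near 0 that changes sign with the scaling and 2 of 17 higher, both of which encode partners in the G1 step. Ccnd1, which encodes cyclin D1 and overlaps Oraov1, was at 23.8 and 97.8 FPKM and Cdk6 at 15.5 and 33.3. In the circadian clock 4 of 12 members were lower, and 3 of these, Hlf, Tef and Dbp, encode factors of the PAR leucine zipper family, with Per3 as the other. Hlf was at 8.75 and 2.25 FPKM and Tef at 23.5 and 11.2, whereas Dbp, which overlaps Sphk2, stood near 1 FPKM. Zinc finger genes named Zfp had a median of -0.33, with 178 of 230 members under 0, 16 lower (6.96%, against 4.61% of all annotated loci) and 1 higher. This median lies between those of all annotated loci at 2 to 5 FPKM, -0.36, and at 5 to 10 FPKM, -0.29. The medians of cholesterol, G2 and M phase and Zfp genes stayed negative under every scaling tried. The largest upward shift of a scaling was 0.05, which is too small to turn them. The median of 78 ribosomal protein loci, 0.13, turned to -0.12 when the PMA library was scaled to the FPKM sum of the DMSO library.

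The change followed the level of the locus. Annotated loci at 1 to 2 FPKM had a median log2 fold change of -0.37, and 20.5% of them were more than 2-fold lower. At 10 to 30 FPKM the median was -0.16 and 2.15% were lower, and at 100 FPKM or more it was 0.09, a sign that turns with the FPKM-sum scaling, and 0.557% were lower. In the libraries labelled SP2bKD the same bins had medians of -0.41, -0.19 and 0.04. The share of higher loci was 9.02% at 1 to 2 FPKM, 6.47% at 2 to 5, 3.36% at 5 to 10, 2.21% at 10 to 30, 3.47% at 30 to 100 and 5.12% at 100 or more. Loci that were higher were also shorter. Their median span on the genome was 16.3 kb, against 24.9 kb for lower loci and 25.2 kb for those within 2-fold, and 21.6% of them spanned under 5 kb, against 13.5% and 9.66%. The part of length and level in the fold changes was not tested.

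Raised loci often lay beside each other. Of the 375 higher annotated loci 20.5% had a higher locus as the next annotated member on either side, against 7.22% of all annotated members, while 10.9% of lower loci had a lower neighbour, against 8.98%. In 6 places 3 or more raised members followed each other. Cxcl3, Cxcl1 and Cxcl2 lay within 120 kb on chromosome 5 (90786103 to 90905938), and Epgn, Ereg, Areg and Btc, all ErbB ligands, within 376 kb on the same chromosome (91027464 to 91403073). Mmp1b, Mmp3 and Mmp10 lay within 143 kb on chromosome 9 (7366747 to 7510238). The other runs were Aim2, Ifi202b and Ifi205 on chromosome 1, Serpinb6b, Serpinb9 and Serpinb9b on chromosome 13, and Bcl3, Ceacam19 and Pvr on chromosome 7. Members of such clusters are paralogs in part, and reads that fit several copies could be shared between them.

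The libraries labelled SP2bKD had 334 of 9937 annotated loci (3.36%) more than 2-fold higher with PMA and 548 (5.51%) more than 2-fold lower. Of the 375 loci higher in 427 cells 259, or 69.1%, were also more than 2-fold higher in the libraries labelled SP2bKD, 103 were within 2-fold and 13 were lower. Unlike the 9937 loci, these were not required to reach 1 FPKM in the libraries labelled SP2bKD. By the same rule 363 (3.64%) of the 9969 annotated members were higher there and 534 (5.36%) lower. Of the 460 lower loci 295, or 64.1%, were also lower, 161 were within 2-fold and 4 were higher. Of the 117 loci more than 4-fold higher in 427 cells 101 were more than 2-fold higher in the libraries labelled SP2bKD, and of the 44 more than 4-fold lower 36 were more than 2-fold lower. Over 9374 loci at 1 FPKM or more in all 4 libraries the correlation of the log2 fold changes was 0.80 (Pearson) or 0.77 (Spearman), a description across loci, which are not replicates. All 11 raised chemokines, all 8 raised NF-kappaB genes and all 7 raised ErbB ligands were also raised in the libraries labelled SP2bKD. Among them Ccl7, at 0 and 0.334 FPKM, and Epgn, at 0.0533 and 0.228, were under 1 FPKM in both of these libraries. Of the 375 loci, which were chosen on 427 values, 298 reached a lower level with PMA in the libraries labelled SP2bKD and 77 a higher one. Lower examples are Cxcl1 at 9.65 and 168 FPKM, Il1a at 13.9 and 161, Csf3 at 0.453 and 14.1 and Ccl2 at 0.496 and 7.17, and higher ones Csf1 at 13.8 and 60.2 and Tgfa at 26.4 and 68.0. Cholesterol genes had a median of -0.50 in the libraries labelled SP2bKD and none of their 15 members was past 2-fold, while Scd2 was at 572 and 278 FPKM. Plau, Atf3 and Nr4a3 were past 2-fold in 427 cells only, with log2 fold changes of 0.63, 0.42 and 0.56 in the libraries labelled SP2bKD, and whether the pairs differ was not tested.

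**Figure D4:**
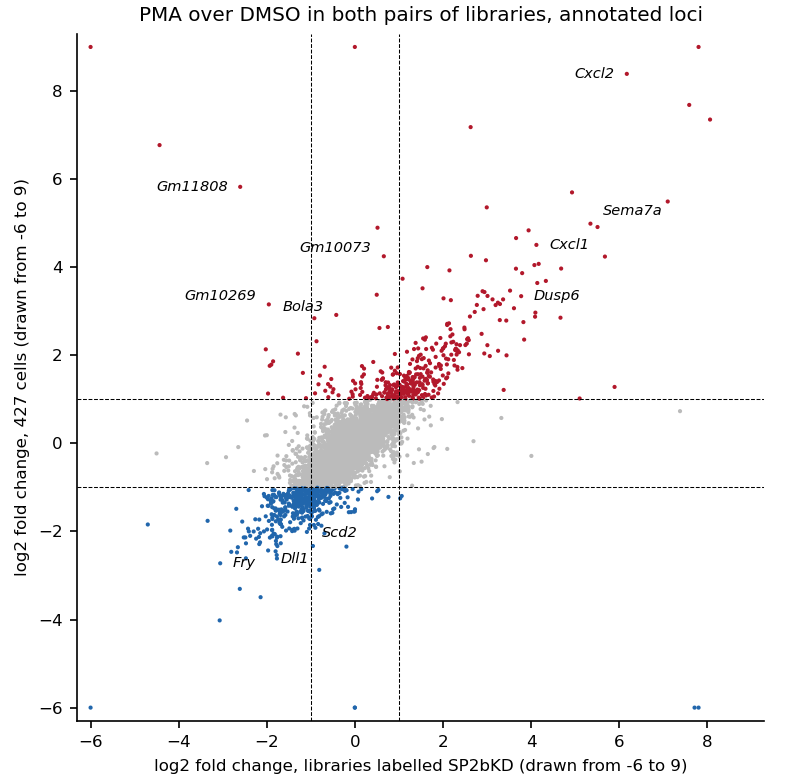
Each point is an annotated locus with the log2 fold change of PMA over DMSO in the libraries labelled SP2bKD on the x axis and in 427 cells on the y axis, both drawn from -6 to 9, in red where it is more than 2-fold higher and in blue where more than 2-fold lower in 427 cells. Most coloured points lie in the lower left and upper right corners, and 13 red and 4 blue points lie past 2-fold on the opposite side.

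Among the 12 largest increases, 1 was within 2-fold in the other pair. Gm10073, a short locus of chromosome 8, was at 4.397 and 83.7 FPKM in 427 cells but at 81.0 and 128 in the libraries labelled SP2bKD. Gm1045 was at 3.02 and 91.2 FPKM, and at 0.846 and 39.0 in the libraries labelled SP2bKD, which puts it among the increases seen in both pairs with Sema7a, Nppb and Hcar2. Sema7a, a membrane-anchored semaphorin, was at 0.836 and 26.8 FPKM, Nppb, the B-type natriuretic peptide gene, at 3.25 and 82.3, and Hcar2, the niacin receptor gene, at 0.971 and 12.6. Esp24, named by its listing at 0 with DMSO and its 27.2 FPKM with PMA, was listed at 0 in both libraries labelled SP2bKD.

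Newly assembled loci, which have no annotated gene model, made up 591 members. Of these 102 (17.3%) were higher and 78 (13.2%) lower, against 4.44% and 5% of all 10981 members. The share past 2-fold also varied with level, as given above, and levels were not matched here. The 3 with the largest increases were listed at 0 with DMSO and stood between 1.25 and 886.8 FPKM with PMA. The 3 with the largest decreases stood between 1.51 and 5.10 FPKM with DMSO and were listed at 0 with PMA. In the libraries labelled SP2bKD 58 of the 102 were also higher and 37 of the 78 also lower.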

How the data were processed

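RNA sequencing of poly(A) RNA (TruSeq kit, paired ends, HiSeq2500) gave 6 libraries, 1 per group, of which the 427 pair was compared and the pair labelled SP2bKD with DMSO and PMA set beside it. The authors aligned reads to GRCm38 and deposited FPKM values per locus, and the submitters' processing notes list STAR 2.4.0b, TopHat2 2.1.1, Cufflinks 2.1.1 and Cuffdiff 2.1.1. Loci carry Ensembl identifiers, or names of assembled loci where gene models were new or merged. FPKM is not a count, so log2((PMA + 0.01)/(DMSO + 0.01)) was described without a test, with a locus called past 2-fold. Groups came from the sample labels. Members and gene lists were chosen with earlier results of these data known. Of 441 listed symbols 12 had no locus and were not analysed here. A result on 1 further listed gene is not reported here. Genes were named by rule: the 12 largest changes in each direction among annotated loci at 10 FPKM or more in a library and above 0 in both, 3 such loci listed at 0 in 1 library, list members (up to 8 per list by size of change), and the Sppl, Adam10, Adam17 and St14 genes. Named outside this rule, after their values were seen, were Jun, Fosl2, Egr1, Rela, Rel, Nfkbib, Tnip1, Cyld, Dusp8, Ppbp, Ccl25, Il18, Kitl, Egfr, Erbb2, Mmp14, the genes of adjacent raised loci and those of the closing observations. Depth came from single-isoform genes longer than 2500 bases in GENCODE M21, and fragments per gene used the longest transcript, so they depend on that length. Ratio intervals are exact binomial 95% intervals and cover counting error only. Symbols or synonyms of 7991 of 9960 member genes matched a RefSeq promoter window. Alternatives changed the amount added, the minimum, the scaling and the set of loci. Python 3.11.15 was used with NumPy 2.4.6, pandas 2.3.3, SciPy 1.17.1 and matplotlib 3.10.9. The fold-change calls were tested on simulated data with large changes planted in well-covered loci only. The depth search in the form used here was not tested on simulated data.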

Additional observations from a re-analysis of the deposited data

Results flagged for a closer look

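In 17 annotated loci PMA and DMSO differed by more than 2-fold in opposite directions in the 427 pair and the pair labelled SP2bKD. Of these 13 were higher in 427 cells and lower in the libraries labelled SP2bKD, 4 were the reverse, and 8 carry a Gm symbol. With 1 library per group, this difference between the pairs was not tested. The loci were short, with a median span of 1.36 kb. Gm11027 had the highest value among those listed at 0 in a library. It was listed at 0 with DMSO and stood at 35.7 FPKM with PMA in 427 cells, whereas in the libraries labelled SP2bKD it stood at 56.3 FPKM with DMSO and was listed at 0 with PMA, a difference that was not tested either.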

How the results depend on the processing

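With 1 library per group the spread between cultures is unknown, and no paired analysis was possible because the labels give 1 library per group and no result comes from a test. The count of higher loci, 488, became 1125 at a minimum of 0.1 FPKM and 259 at a minimum of 10 FPKM. The count of lower loci, 549, became 1680 and 122 at these minimums, 208 with 1 FPKM added and 1039 when the PMA library was scaled to the FPKM sum of the DMSO library. That scaling also moved the median log2 fold change of all loci to -0.37. A lower minimum tests more loci and a higher one fewer. Of 314 named genes none past 2-fold turned its direction under the 5 changes of added amount or scaling, which could not have turned one. An equal amount added to both libraries keeps the sign of a fold change. The largest shift of a scaling, -0.25 on the log2 scale, is smaller than the threshold. Among smaller changes 38 turned negative with the FPKM-sum scaling, 5 turned positive with the upper-quartile scaling and 7 when centred, the chemokine Ccl25 being among the 38. Of those past 2-fold 13 no longer passed 2-fold with 1 FPKM added, among them Nr4a3, Epgn, Erbb3, Id2, Dbp, Per3 and Edn2. With the FPKM-sum scaling 10 no longer passed, among them Junb, Nfkb1, Tgfa and Cdk6, and 10 others newly passed. Low FPKM values rest on few fragments, which limits ratios of genes near 0.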

Other observations

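Families picked by symbol after the values were seen add epithelial genes. Of 12 measured keratins 4 were more than 2-fold higher and none lower, against 3.76% and 4.61% of all annotated loci. The 4 include Krt18, while Krt14, Krt10 and Krt13 had log2 fold changes of -0.14, -0.01 and -0.81. The 12 leave out the more abundant Krt5, whose locus is merged and whose log2 fold change was -0.05. Krt16, a keratin of activated keratinocytes, was at 53.3 FPKM with DMSO and 145 with PMA, and Krt80 at 66.0 and 135. Of 13 measured cornified envelope genes 7 were higher and 1 lower, most of them at low levels. Of the 7, Sprr2h, Ivl, Lce1f, Crct1 and Lce3c were under 1 FPKM with DMSO and met the rule through the PMA library only. In the libraries labelled SP2bKD 4 of the 13 were higher and 1 lower. Tgm1, the transglutaminase that cross-links this envelope, was at 6.25 and 21.8 FPKM. Sprr1b, the most abundant of the 13, was at 56.7 and 60.7 FPKM, and Sprr2a3, the lower member, at 3.31 and 1.42. Of 4 claudins 2 were higher, and Cldn1 was at 5.62 and 37.2 FPKM. Ifi202b, of the DNA sensor family of Aim2, was at 18.5 and 97.0 FPKM.

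Wnt signalling genes, also picked after the values were seen, were divided. Of 6 Wnt ligands 3 were lower and 1 higher, against 4.61% and 3.76% of all annotated loci. The higher ligand was Wnt11, at 1.95 and 4.09 FPKM. The abundant Wnt7b, at 94.7 and 88.1 FPKM, and Wnt7a, at 25.6 and 46.6, stayed within 2-fold. Wnt4 was at 24.9 FPKM with DMSO and 10.9 with PMA, and Wnt9a at 6.29 and 1.40. Of 7 Frizzled receptors 2 were lower and 0 higher, with Fzd1 at 26.4 and 10.2 FPKM and Fzd2 at 16.1 and 5.72. Wnt4, Wnt9a, Fzd1 and Fzd2 were also more than 2-fold lower in the libraries labelled SP2bKD.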
